A study of Rattus norvegicus with 9 samples.

Results

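Complex I of the mitochondrial respiratory chain takes electrons from NADH and passes them to ubiquinone, and most of its subunits are encoded by nuclear genes whose symbols begin with Nduf. The genes described here are all rows of the expression table whose symbol is Nduf followed by a, b, c, s or v and a number, together with Ndufab1; assembly factors (Ndufaf genes) and processed copies were not taken. The rule found 40 of the 20442 genes of the table. Of these, 37 are subunits of complex I in current nomenclature (7 core and 30 accessory), and the other 3 are Ndufa4, now placed with cytochrome c oxidase, its paralogue Ndufa4l2, and Ndufa10l1, a gene named for its likeness to Ndufa10. All 40 reached 1 FPKM (fragments per kilobase of gene model, scaled to the reads of the library) in at least 3 libraries, as did 11141 genes of the whole table. The row left out as a copy was 1, a Ndufa13 pseudogene.

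RNA was sequenced from 9 cultures of wild-type rat dendritic cells grown from bone marrow in 10% fetal bovine serum with GM-CSF and IL-4, each at 20 ng/mL, in a study of how extracellular vesicles (EVs) act on these cells. The groups held 3 cultures each: Control, labelled as untreated; LPS, given lipopolysaccharide, a bacterial endotoxin; and LPS+EVs, given LPS together with EVs, which the series title says came from ASCs and carried mitochondria. A single treatment text stands on every label, Control included, with LPS at 1 µg/mL, a further 50 ng/mL of an agent it does not name, and 24 h; the dose of EVs, and the strain and age of the rats, are not given in the sources used here. The replicates are labelled biological, but no label ties them to separate animals; the p-values therefore measure the spread between these cultures only.

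Complex I is shaped like an L. Its matrix arm holds the N module, where NADH is oxidised, and the Q module, where a chain of iron-sulfur clusters ends at ubiquinone; its membrane arm pumps protons, and its core there is encoded by the mitochondrial genome. The accessory subunits surround this core and are needed for its assembly and stability. In dendritic cells and macrophages, activation through Toll-like receptors is known to go with a shift from respiration to glycolysis.

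The recovered library totals were 32148519 to 39407116 reads, so that 3 reads in a gene of 1 kb correspond to 0.0761 to 0.0933 FPKM; the lowest read count of any of the 40 genes in any library was 24, for Ndufa4l2, and for a complex I subunit 44, for Ndufs6. Libraries numbered 2 stood apart in every group on the second principal component, which held 21.0% of the variance, with a score of -20.9 for Control 2, -41.1 for LPS 2 and -35.9 for LPS+EVs 2. Of 10 dendritic cell markers all were found, but Flt3 was under 1 FPKM in every library, and their summed level ranged over 1984 to 9691 FPKM in Control, over 1194 to 8226 in LPS and over 1620.1 to 8576 in LPS+EVs. The 8 macrophage and monocyte markers summed to 1248 to 1362, 1209 to 1735 and 1478 to 1944 FPKM in the same order. The 8 neutrophil markers summed to 30.9 to 256 FPKM in Control, 1.80 to 6.67 in LPS and 4.07 to 17.3 in LPS+EVs, with Mpo, Elane, Ngp and Ltf under 1 FPKM throughout, and the 5 erythroid markers found to 55.2 to 448, 4.88 to 9.58 and 3.72 to 8.84, with Hbb-b1 and Alas2 under 1 FPKM throughout. The 6 stromal markers summed to 142 to 450.4, 84.7 to 674 and 123 to 806 FPKM, and the 3 lymphoid markers found were under 1 FPKM throughout. The part of these markers in the results below was not tested. Ferritin heavy chain (Fth1) alone took 0.464% to 0.538% of the reads in Control and 1.84% to 3.37% in both treated groups.

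In Control cultures the 37 subunits spanned a 36.6-fold range per length, from 6.18 FPKM for Ndufs6 to 226 FPKM for Ndufb8, with a median of 69.3 FPKM. Below Ndufb8 came Ndufa13, Ndufb9, Ndufa1 and Ndufa11, and above Ndufs6 came Ndufab1, Ndufa10 and Ndufs8. Of the 36 pairs of neighbours in this order, 30 overlapped between libraries, so that most adjacent ranks did not differ beyond their spread. FPKM divides by the length of the gene model: 5532 bases for Ndufa10, 2775 for Ndufab1 and 351 for Ndufs6. In LPS the range was 24.9-fold with a median of 43.8 FPKM, and in LPS+EVs 31.4-fold with a median of 45.3 FPKM; Ndufa1 had the highest mean in both, at 125 and 135 FPKM.

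Summed over the 37 subunits, the level was 2800.2, 2703 and 2482 FPKM in the 3 Control libraries, 1833, 1889 and 1674 FPKM in LPS, and 1856, 1960.3 and 2065 FPKM in LPS+EVs. Every Control library stood above every treated library, and the LPS and LPS+EVs libraries overlapped. The means were 2662 ± 163, 1799 ± 111 and 1960.3 ± 104 FPKM (SD, n = 3). As a share of all reads the subunits made up 0.219% ± 0.0145, 0.141% ± 0.0081 and 0.154% ± 0.00678 (SD, n = 3). In bulk RNA, fewer cells of a type and less RNA per cell cannot be told apart.

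**Figure D1:**
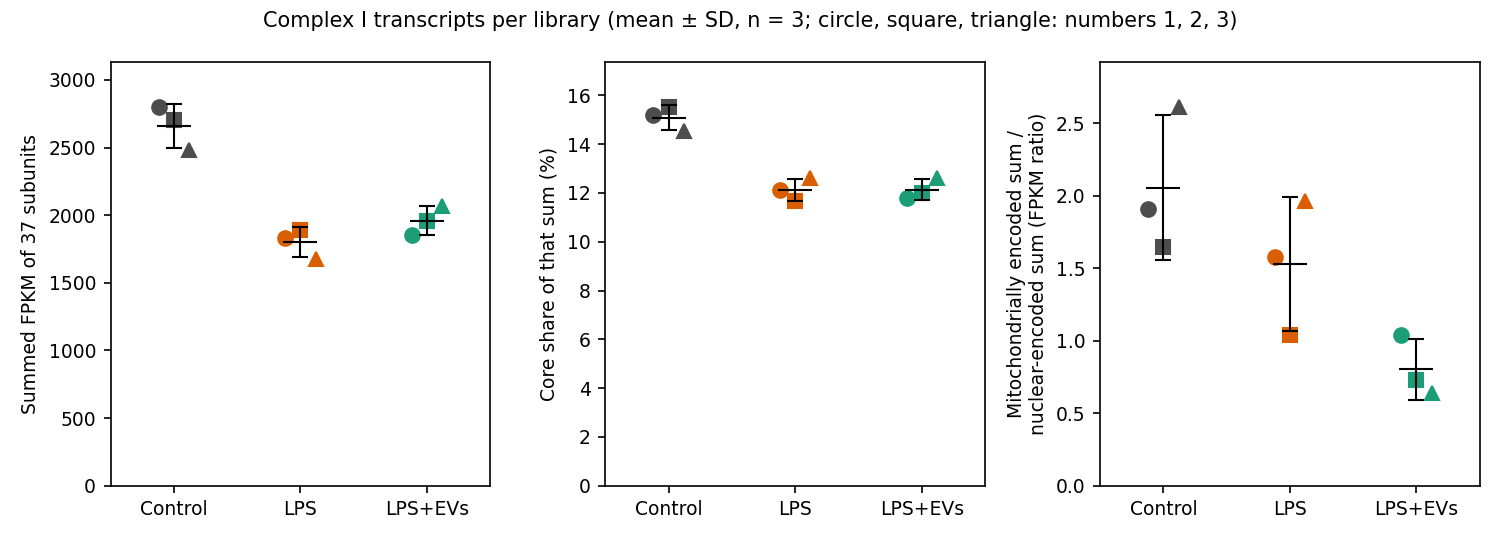
Each point is 1 library (x axis: Control, LPS, LPS+EVs; black bars: group mean ± SD, n = 3; circle, square and triangle: numbers 1, 2 and 3); the panels show the summed FPKM of the 37 subunits, the share of that sum held by the 7 core subunits in percent, and the summed FPKM of the 7 mitochondrially encoded subunits divided by that of the 37. The core share is near 15.1% in Control and near 12.1% in both treated groups, and the third ratio is lowest in LPS+EVs.

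LPS cultures were first set against Control cultures, for the effect of LPS; which of these groups received the unnamed agent is not given in the sources used here. Levels were compared on log2(FPKM + 1) with limma over all 11141 genes, and a gene is called where its p-value, adjusted over all genes by the Benjamini-Hochberg method, is under 0.05. With LPS, 25 of the 40 genes fell and 0 rose, where 28.7% of all genes tested were called lower and 12.3% higher. All 25 are complex I subunits. The median log2 difference was -0.50 for the 40 and -0.19 for all genes. Between groups without overlap stood 31 of the 40 lower and 1 higher, against 37.6% and 17.5% of all genes. Rescaling the libraries by the median of ratios centres the typical gene by construction, so it cannot tell a shift of most genes from an effect of scaling. After it the median of all genes was -0.00 and that of the 40 was -0.28, with 14 of the 40 lower and 1 higher against 20.9% and 17.0% of all genes. In limma-voom on reads recovered from the FPKM values it was 15 lower and 1 higher, against 21.0% and 17.3%. Its library sizes were also set by the median of ratios, so it is not a check independent of that rescaling. With the replicate number as a block in the fit, 28 were lower and 1 higher, against 35.5% and 17.2% of all genes, and with block and rescaling 17 and 1, against 26.1% and 24.1%. Without the libraries numbered 2, 26 were lower and 0 higher, against 28.8% and 15.9%. Changes below are given on the deposited scale. Of the 40 genes, those called on that scale only are named in each comparison with Control. For single genes of the other lists, the mitochondrially encoded genes included, the result after rescaling is not given here.

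Each core subunit of the matrix arm described here fell with LPS, and each except Ndufs7 was also called after rescaling. In the N module, Ndufv1, the subunit that binds NADH and its flavin, was at 87.8, 93.2 and 71.6 FPKM in Control, 41.5, 39.2 and 40.3 FPKM in LPS, and 37.7, 45.0 and 47.4 FPKM in LPS+EVs. Its highest treated library lay below its lowest Control library. The log2 difference of LPS from Control was -1.04 (SE 0.13, adjusted p = 0.000532, limma).

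Ndufs1, the largest subunit of the N module and carrier of several of its iron-sulfur clusters, was at 48.0, 41.1 and 41.0 FPKM in Control, 21.6, 16.4 and 19.1 FPKM in LPS, and 20.6, 16.5 and 23.1 FPKM in LPS+EVs. It had the largest difference of the core, -1.15 (SE 0.15, adjusted p = 0.0007, limma). Ndufv2, which holds a further cluster beside the flavin, was at 75.7, 69.3 and 70.1 FPKM in Control, 42.7, 46.6 and 42.1 FPKM in LPS, and 44.2, 46.8 and 44.9 FPKM in LPS+EVs. No treated library of Ndufv2 reached its Control range, and its difference was -0.70 (SE 0.09, adjusted p = 0.000657, limma). Control and LPS did not overlap for any of these 3 core genes.

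In the Q module, Ndufs8, a ferredoxin-like subunit with a pair of clusters, was at 26.9, 27.2 and 23.2 FPKM in Control, 10.5, 10.6 and 12.2 FPKM in LPS, and 11.3, 12.8 and 15.7 FPKM in LPS+EVs. The difference of LPS from Control was -1.14 (SE 0.14, adjusted p = 0.000471, limma). Every Control library of Ndufs8 was above every treated library.

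Ndufs3, a scaffold of the Q module, was at 45.9, 45.2 and 41.2 FPKM in Control, 29.4, 26.2 and 25.9 FPKM in LPS, and 27.0, 28.2 and 29.4 FPKM in LPS+EVs, with a difference of LPS from Control of -0.68 (SE 0.10, adjusted p = 0.00114, limma). Ndufs7, which carries the last cluster before ubiquinone, was the weakest call of the core. Its levels were 53.2, 62.0 and 42.0 FPKM in Control, 38.2, 35.5 and 31.6 FPKM in LPS, and 35.7, 40.7 and 54.3 FPKM in LPS+EVs, so that 1 LPS+EVs library lay within the Control range. Its difference was -0.55 (SE 0.19, adjusted p = 0.0442, limma), and the adjusted p ran from 0.0292 to 0.218 over the alternatives: the call was lost after rescaling and without any one of 6 libraries, which were Control 1 and 2, LPS 1, 2 and 3, and LPS+EVs 2.

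**Figure D2:**
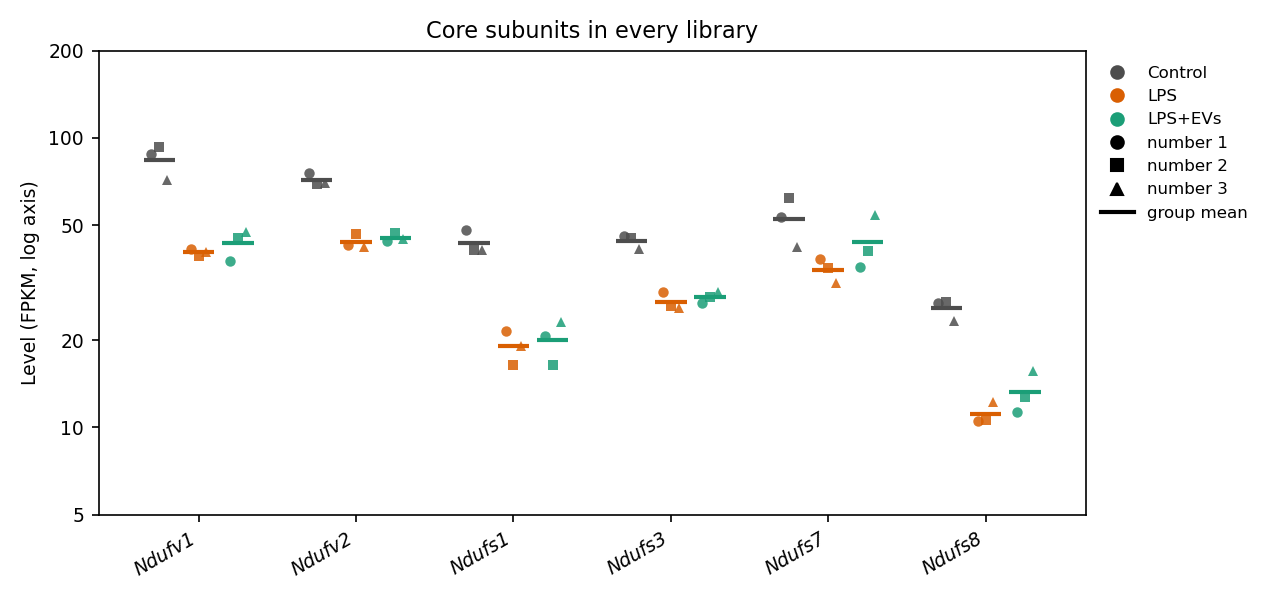
FPKM (log axis) of core subunits in each library, with 1 point per library, colours for Control, LPS and LPS+EVs, and bars for group means. The Control points of every gene shown except Ndufs7 lie above all treated points.

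As a share of the summed FPKM of the 37 subunits, the core subunits held 15.1% ± 0.494 in Control, against 12.1% ± 0.467 in LPS and 12.1% ± 0.436 with EVs added (SD, n = 3). The core share of every Control library was above that of every treated library. This share does not depend on how the libraries are scaled to each other.

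The 10 accessory subunits of the matrix arm gave 4 lower calls with LPS, where 28.7% of all genes were called lower. Their median difference was -0.26, near the median of all genes. The 4 were Ndufab1, Ndufa9, Ndufa12 and Ndufv3. After rescaling 2 of the 10, Ndufab1 and Ndufa9, were called lower, a share near the 20.9% of all genes. Ndufab1, the mitochondrial acyl carrier protein, which also serves fatty acid and iron-sulfur cluster synthesis, was at 17.4, 15.1 and 15.0 FPKM in Control, 8.78, 9.86 and 7.25 FPKM in LPS, and 10.4, 9.27 and 8.81 FPKM in LPS+EVs. No treated library reached the Control range, and the difference of LPS from Control was -0.81 (SE 0.14, adjusted p = 0.0022, limma). Ndufa9, a subunit at the joint of both arms with a dehydrogenase-like fold, differed by -0.75 (adjusted p = 0.00225, limma). After rescaling its difference was -0.54, with an adjusted p of 0.0481 (limma), close to the threshold. Ndufa12 and Ndufv3 differed by -0.46 and -0.45 (adjusted p = 0.019 and 0.0305, limma), with the Ndufa12 call lost without Control 1 or Control 3 and the Ndufv3 call lost without Control 1, Control 2, LPS 1 or LPS 3.

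Ndufa7, an accessory subunit of the Q module, was the gene with the largest value above 0 among the 37 subunits. It was at 72.8, 87.0 and 69.5 FPKM in Control, 97.2, 108 and 88.2 FPKM in LPS, and 103, 120.1 and 125 FPKM in LPS+EVs, and every treated library was above every Control library. The LPS difference of 0.35 (SE 0.13) had an adjusted p of 0.061 with limma. Its call was made when replicate numbers were blocked (adjusted p = 0.0334), after rescaling (0.56, adjusted p = 0.0393), in limma-voom, which shares that rescaling, and without Control 2. Over all alternatives the adjusted p ran from 0.00438 to 0.182. Its share of the summed FPKM of the 37 subunits was 2.87% ± 0.316 in Control, against 5.42% ± 0.241 in LPS and 5.91% ± 0.318 with EVs added (SD, n = 3).

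The other 5 accessory subunits of the matrix arm did not pass with LPS. Ndufs4, needed to join the N module to the rest, had a difference of -0.23, Ndufs6, a zinc-binding subunit beside it, -0.26, Ndufa2, with a thioredoxin-like fold, -0.25, Ndufa5 -0.21 and Ndufa6, an LYR protein that holds Ndufab1 in place, -0.20. Ndufs6 was at 6.58, 6.74 and 5.23 FPKM in Control, 4.72, 4.19 and 6.21 FPKM in LPS, and 4.13, 3.45 and 5.31 FPKM in LPS+EVs, and the 3 groups overlapped.

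Around the proximal membrane arm, next to the matrix arm, 4 of 9 subunits fell with LPS, with a median difference of -0.44. They were Ndufa3 (-0.87, adjusted p = 0.00305, limma), Ndufa11 (-0.82, adjusted p = 0.000865, limma), Ndufa13 (-0.59, adjusted p = 0.00648, limma) and Ndufc2 (-0.44, adjusted p = 0.013, limma), and Ndufa3 and Ndufa11 were also called after rescaling. These 2 of 9 are near the background of 20.9% of all genes called lower after rescaling, and the 4 of 9 stand beside 28.7% on the deposited scale. Ndufa11, which contacts complex III in supercomplexes, was at 120.0, 119 and 108 FPKM in Control, 67.2, 58.8 and 69.1 FPKM in LPS, and 66.4, 67.4 and 80.5 FPKM in LPS+EVs. Ndufa13, also known as GRIM-19, was the second most abundant subunit per length in Control.

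Ndufa1, a small membrane subunit encoded on the X chromosome, was the member nearest to no difference. It was at 127, 133 and 110.3 FPKM in Control, 122, 144 and 110.0 FPKM in LPS, and 114, 148 and 142 FPKM in LPS+EVs, and all 3 groups overlapped; the LPS difference was 0.02 (adjusted p = 0.928, limma). Its share of the summed FPKM was 4.63% ± 0.253 in Control and 6.96% ± 0.59 in LPS (SD, n = 3). The other 4 of the 9 did not pass: Ndufc1 (-0.48, adjusted p = 0.0727, limma), Ndufa8 (-0.29, adjusted p = 0.0514), Ndufa10 (-0.27, adjusted p = 0.0688) and Ndufs5 (-0.27, adjusted p = 0.274). Under the replicate block Ndufc1 was called lower (adjusted p = 0.0198).

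The distal membrane arm, which carries the far proton pumps and whose accessory subunits are the Ndufb genes, had 10 of 11 subunits called lower with LPS and a median difference of -0.62; after rescaling 4 were called, Ndufb1, Ndufb4, Ndufb5 and Ndufb8. The shares of all genes called lower were 28.7% and 20.9%. Ndufb5 had the largest difference of all 40 genes. It was at 48.2, 41.8 and 43.8 FPKM in Control, 18.8, 14.8 and 18.9 FPKM in LPS, and 17.9, 14.5 and 16.8 FPKM in LPS+EVs. The LPS level was far below Control in every library, with a difference of -1.31 (SE 0.13, adjusted p = 0.00018, limma).

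Ndufb8, the most abundant subunit per length in Control and a common immunoblot marker of assembled complex I, was at 264, 212 and 202 FPKM in Control, 101, 104 and 95.1 FPKM in LPS, and 100.4, 103 and 111 FPKM in LPS+EVs. The difference of LPS from Control was -1.16 (SE 0.12, adjusted p = 0.000181, limma), and its share of the summed FPKM was 8.47% ± 0.838 in Control and 5.57% ± 0.102 in LPS (SD, n = 3). Ndufb1, typed as non-coding in the table, and Ndufb4 differed by -0.99 and -0.87 (adjusted p = 0.00192 and 0.000649, limma). The remaining called Ndufb genes were Ndufb2, Ndufb3, Ndufb6, Ndufb7, Ndufb9 and Ndufb11, with differences from -0.79 for Ndufb6 to -0.48 for Ndufb9. Of these, Ndufb2 (-0.62, adjusted p = 0.046, limma) lost its call without any one of Control 1, 2 or 3, LPS 2 or 3, or LPS+EVs 1, and Ndufb7 (-0.51, adjusted p = 0.0177, limma) without Control 2. Ndufb10, a subunit of the intermembrane space side with twin cysteine motifs, was at 71.6, 73.3 and 64.3 FPKM in Control, 54.1, 61.1 and 45.0 FPKM in LPS, and 58.0, 70.8 and 61.6 FPKM in LPS+EVs; its difference of -0.39 did not pass (adjusted p = 0.0503, limma) and did with the block (0.0182).

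Of the 25 genes called lower on the deposited scale, 11 were not called after rescaling: Ndufa12, Ndufa13, Ndufb2, Ndufb3, Ndufb6, Ndufb7, Ndufb9, Ndufb11, Ndufc2, Ndufs7 and Ndufv3.

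**Figure D3:**
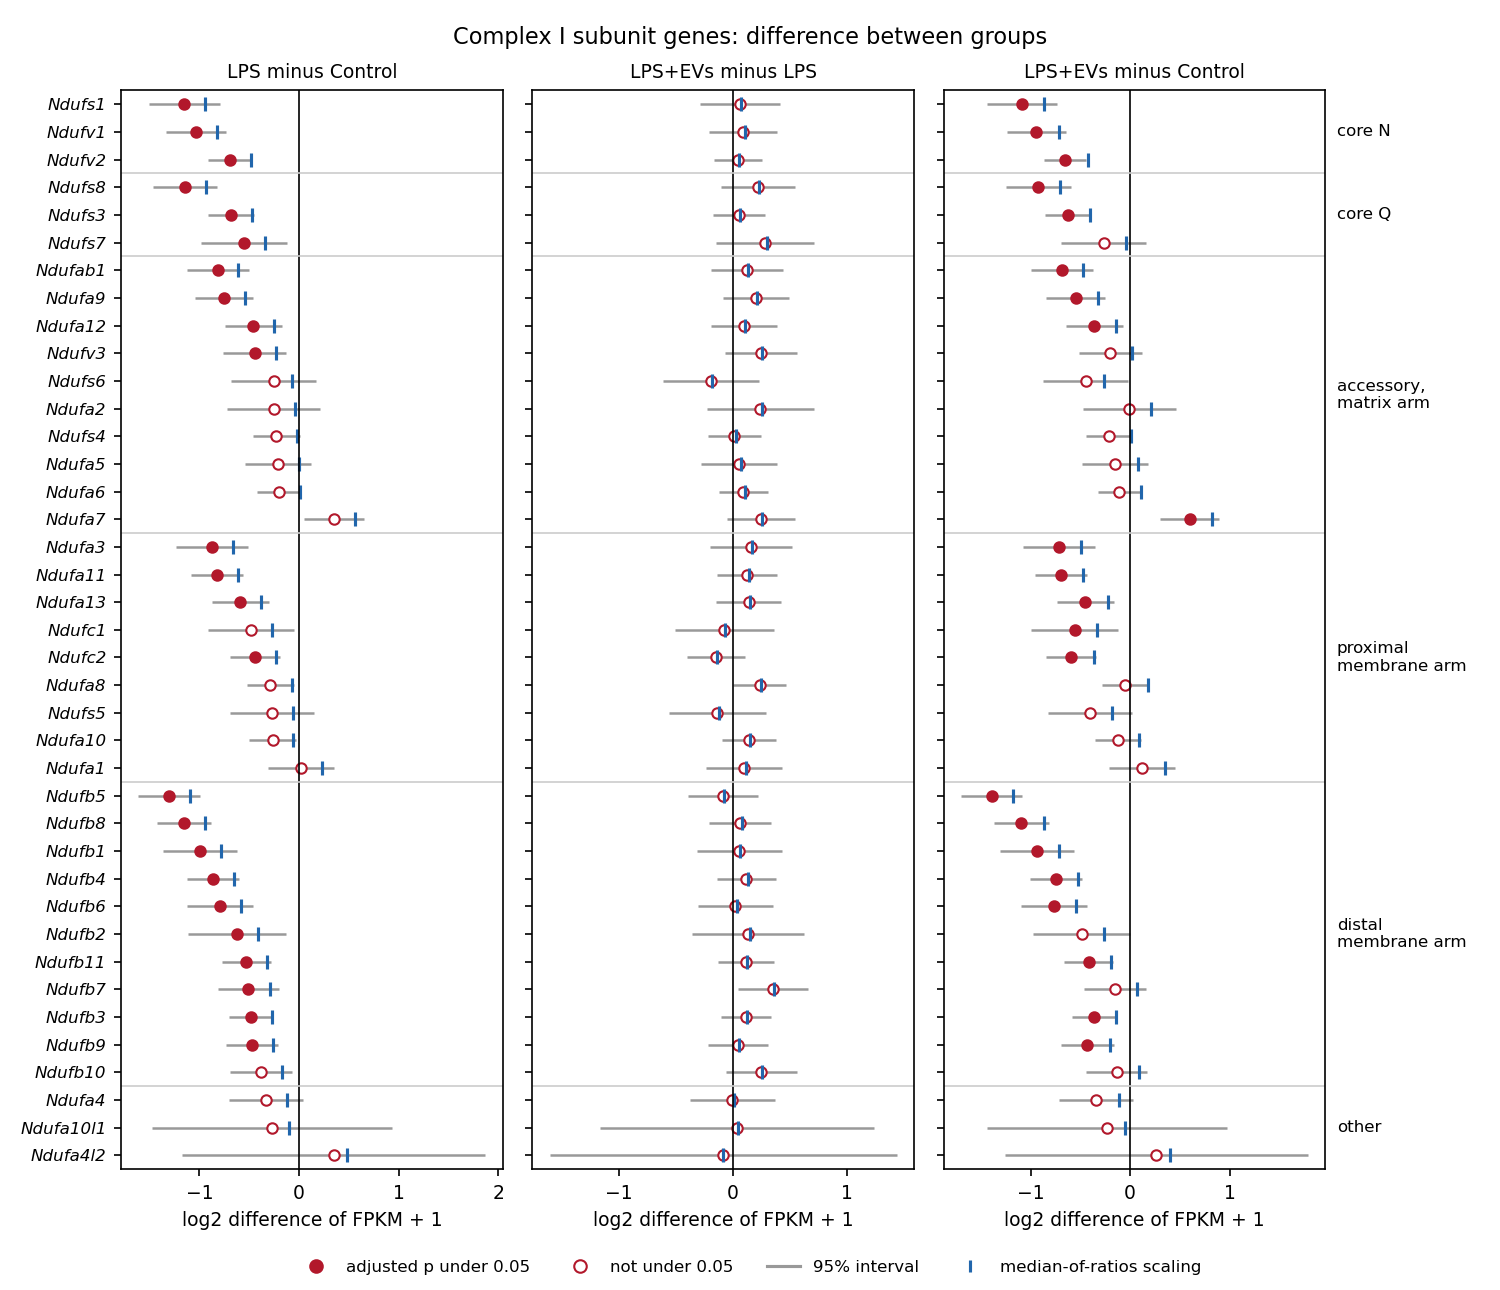
Log2 difference of FPKM + 1 for the genes described, in the 3 comparisons, grouped by place in the complex; points are limma estimates, lines 95% intervals, filled points have an adjusted p under 0.05, and blue ticks give the difference after median-of-ratios rescaling. In both comparisons with Control most genes lie left of 0 and Ndufa7 lies right of it, and no point is filled for LPS+EVs minus LPS.

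**Figure D4:**
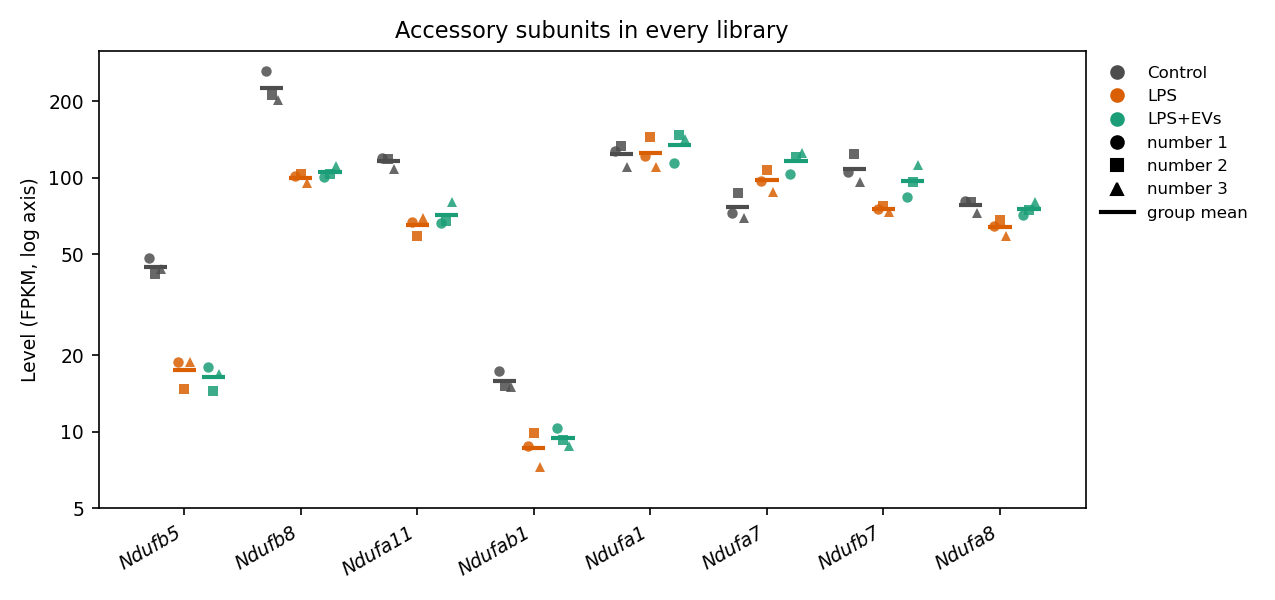
FPKM in each library of 8 accessory subunits, with 1 point per library and bars for group means. Ndufb5, Ndufb8, Ndufa11 and Ndufab1 are higher in every Control library than in any treated one, Ndufa7 is lower, and the Ndufa1 groups overlap.

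The 3 genes outside complex I gave 0 calls. Ndufa4, the subunit of cytochrome c oxidase, was at 105, 73.1 and 80.4 FPKM in Control, 75.9, 59.3 and 67.3 FPKM in LPS, and 74.3, 58.6 and 69.1 FPKM in LPS+EVs. In each number the LPS library was below the Control library, but the groups overlapped; the difference was -0.34 (adjusted p = 0.131, limma) and passed with the block (0.0215). Ndufa4l2, a paralogue known to be induced in hypoxia, was at 2.34, 0.804 and 4.36 FPKM in Control, 6.86, 1.07 and 3.09 FPKM in LPS, and 4.32, 0.564 and 5.74 FPKM in LPS+EVs. Its lowest library in each group was the one numbered 2, and the difference of LPS from Control was 0.35 (adjusted p = 0.705, limma). Ndufa10l1 was at 10.0, 3.87 and 3.36 FPKM in Control, 8.83, 2.62 and 2.75 FPKM in LPS, and 8.40, 2.65 and 3.21 FPKM in LPS+EVs, with the library numbered 1 high in every group.

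For 18 of the 40 genes the RefSeq gene table names at least 1 pseudogene copy, with 7 for Ndufb4, 4 each for Ndufa13, Ndufa2 and Ndufa5, 3 for Ndufb1, and 2 for Ndufa7, Ndufab1 and others; how reads shared with such copies were counted is not given in the sources used here, and the levels of these genes are uncertain to that degree. The same holds for Ndufa10 and Ndufa10l1.

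Promoters were read from the RefSeq table of rat build GRCr8, a later build than that of the expression table, and 35 of the 40 genes had an entry, 33 of them subunits of complex I; those without one include Ndufa8, Ndufb9, Ndufs6 and Ndufa10l1. The 250 bases before each start were searched on both strands for 4 motifs: GCGCNTGCG for NRF1, CCGGAAG for ETS factors such as GABPA, ATGGCGG for YY1 and TCAAGGTCA for ERRalpha. NRF1, GABPA and ERRalpha are known regulators of respiratory chain genes. Of the 33 subunits, 6 held the NRF1 motif (18.2%, against 5.03% of all 33469 promoters), 7 the ETS motif (21.2% against 7.27%) and 5 the YY1 motif (15.2% against 2.47%), and 0 held the ERRalpha motif (0.388% of all). At least 1 of the 4 was found in 14 of the 33 (42.4%, against 13.7% of all). The median GC content was 57.2% in the subunit promoters and 51.2% in all. Such matches describe letters only, and binding was not tested. The 5 windows below are of core subunits with an ETS motif that fell with LPS (Ndufs1 and Ndufs8), of a subunit that fell and holds overlapping NRF1 motifs (Ndufa11), of the subunit with the smallest difference (Ndufa1) and of the one called higher with LPS+EVs (Ndufa7); each runs 5′ to 3′ towards the start, and capitals mark the motifs, on either strand.
Ndufs1, chr9:72073606-72073855 (minus strand), ETS and YY1 motifs: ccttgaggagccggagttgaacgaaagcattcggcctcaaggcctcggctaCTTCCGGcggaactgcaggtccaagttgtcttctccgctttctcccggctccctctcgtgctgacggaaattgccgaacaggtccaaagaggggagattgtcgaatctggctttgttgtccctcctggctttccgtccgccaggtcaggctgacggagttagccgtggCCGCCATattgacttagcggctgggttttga
Ndufs8, chr1:210573699-210573948 (minus strand), ETS motif: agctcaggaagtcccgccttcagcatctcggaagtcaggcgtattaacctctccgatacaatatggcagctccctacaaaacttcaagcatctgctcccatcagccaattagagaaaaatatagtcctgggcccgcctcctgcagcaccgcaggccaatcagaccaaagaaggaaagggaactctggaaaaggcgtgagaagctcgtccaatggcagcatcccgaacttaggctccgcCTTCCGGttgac
Ndufa11, chr9:1637364-1637613 (plus strand), 4 overlapping NRF1 matches: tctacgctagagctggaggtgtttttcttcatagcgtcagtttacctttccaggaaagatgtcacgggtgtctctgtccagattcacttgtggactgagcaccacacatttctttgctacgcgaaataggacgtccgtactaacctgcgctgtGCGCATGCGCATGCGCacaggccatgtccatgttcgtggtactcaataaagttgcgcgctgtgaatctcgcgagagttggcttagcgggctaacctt
Ndufa1, chrX:121293556-121293805 (minus strand), ETS and YY1 motifs: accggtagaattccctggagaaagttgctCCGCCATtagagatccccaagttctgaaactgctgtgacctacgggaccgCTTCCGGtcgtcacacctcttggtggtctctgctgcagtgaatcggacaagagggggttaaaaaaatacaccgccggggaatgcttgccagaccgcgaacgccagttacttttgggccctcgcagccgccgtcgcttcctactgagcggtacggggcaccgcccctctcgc
Ndufa7, chr7:15311196-15311445 (plus strand), YY1 motif: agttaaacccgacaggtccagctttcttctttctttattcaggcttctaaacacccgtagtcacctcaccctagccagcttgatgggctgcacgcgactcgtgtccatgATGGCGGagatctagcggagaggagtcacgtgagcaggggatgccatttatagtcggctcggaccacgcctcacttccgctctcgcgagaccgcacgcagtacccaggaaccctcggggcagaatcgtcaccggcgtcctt
Ndufs1 and Ndufa1 hold the same 2 motifs and differed with LPS by -1.15 and 0.02 on the log2 scale. Over the 33 subunits, the median LPS difference was -0.42 for the 14 with a motif and -0.70 for the 19 without. For the 6 with the NRF1 motif it was -0.42 (range -0.82 to -0.21). For the 7 with the ETS motif it was -0.51 (range -1.15 to 0.02), and for the 5 with the YY1 motif -0.20 (range -1.15 to 0.35). Whether the motifs have a part in these differences was not tested.

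The counts for the other gene lists are to be read against all genes tested. Of these, 28.7% were called lower and 12.3% higher, and 20.9% and 17.0% after rescaling. Calls of single genes in these lists are on the deposited scale, and whether each held after rescaling is not given here. Of 17 complex I assembly factors found of 19 listed, 8 fell and 0 rose, with a median of -0.58. Acad9, an assembly factor of the membrane arm, went from 18.1 ± 1.34 to 7.44 ± 1.29 FPKM (-1.19, adjusted p = 0.00105, limma), Ndufaf8 from 19.3 ± 1.64 to 8.35 ± 1.53 (-1.13, adjusted p = 0.0012) and Ndufaf6 from 5.87 ± 1.15 to 2.56 ± 0.496 (-0.95, adjusted p = 0.00284; SD, n = 3). After rescaling 6 of the 17 were called lower. Of 16 genes of iron-sulfur cluster supply, 6 fell and 1 rose, with a median of -0.58; the ferredoxin Fdx1 went from 13.9 ± 1.29 to 7.73 ± 0.403 FPKM (-0.77, adjusted p = 0.00216, limma; SD, n = 3), and the gene that rose was Isca2 (0.59, adjusted p = 0.0116). Of 13 genes of ubiquinone synthesis, the acceptor of complex I electrons, 6 fell and 1 rose, with a median of -0.49. The enzymes Pdss1 and Coq7 led, at -1.80 and -1.59, followed by Coq8a at -1.16, and the gene that rose was Coq10b (0.62, adjusted p = 0.0277, limma).

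Subunits of the other complexes of the respiratory chain were also lower. With LPS, 2 of 4 complex II subunits fell (median -0.49, led by Sdha at -0.90), 7 of 9 of complex III (median -0.52, led by Cyc1 at -0.99), 9 of 10 of complex IV (median -0.51, with Cox7b at -0.96 and Cox4i1 at -0.89) and 13 of 15 of ATP synthase (median -0.84, led by Atp5f1a at -1.31), and 0 rose in each. The median of the 37 complex I subunits was -0.53. After rescaling, 2, 3, 4 and 8 of these were called lower, beside 14 of 37 for complex I. A list of 8 further enzymes, most of which feed electrons to ubiquinone, had 2 lower and 1 higher. The transhydrogenase Nnt, which does not feed ubiquinone but exchanges hydride between NADH and NADP+, went from 27.6 ± 3.85 to 7.29 ± 0.821 FPKM (-1.78, adjusted p = 6.64e-05, limma), Etfa differed by -0.82, and the sulfide oxidase Sqor rose from 28.8 ± 3.9 to 68.7 ± 21.5 FPKM (1.18, adjusted p = 0.00865; SD, n = 3).

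**Figure D5:**
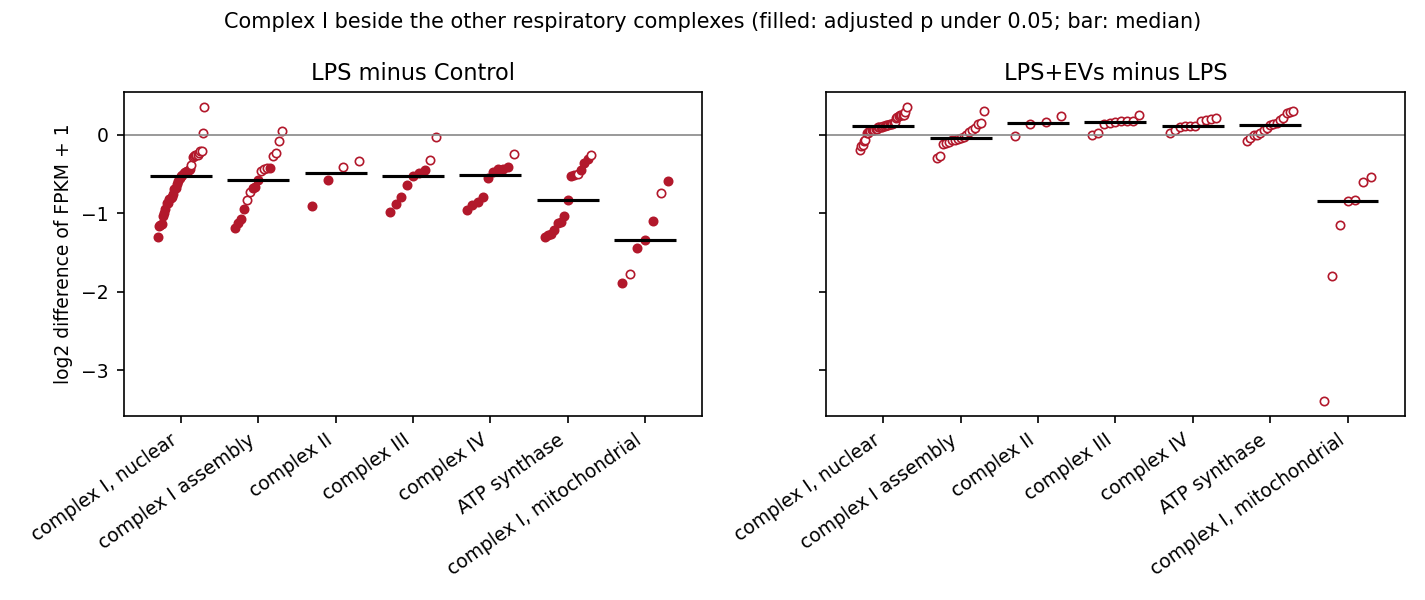
Log2 differences of FPKM + 1 for the genes of each respiratory complex and of the assembly and mitochondrially encoded lists, for LPS minus Control and LPS+EVs minus LPS; points are genes, filled where the adjusted p is under 0.05, and bars are medians. All nuclear-encoded lists have medians below 0 with LPS and near 0 for LPS+EVs minus LPS, and the mitochondrially encoded genes lie below 0 in both.

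Of 13 regulators of respiratory chain genes listed, 12 were tested, and with LPS 5 fell and 1 rose. Myc went from 59.9 ± 3.16 to 6.31 ± 1.1 FPKM (-3.07, adjusted p = 1.78e-05, limma), the ETS factor Gabpa from 9.14 ± 0.489 to 5.74 ± 0.678 (-0.59, adjusted p = 0.00666), and the coactivator Ppargc1b from 2.31 ± 0.769 to 0.612 ± 0.343 (-1.04, adjusted p = 0.012; SD, n = 3). The mitochondrial transcription factors Tfam and Tfb2m were the other 2 that fell (-0.75 and -1.04), and Hif1a, the hypoxia-inducible factor, rose (1.10, adjusted p = 0.0215, limma). Nrf1, whose motif is described above, was at 3.8 ± 0.346 FPKM in Control and 3.33 ± 0.325 FPKM in LPS and did not pass (adjusted p = 0.381, limma).

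The comparison of LPS+EVs with LPS asks what the vesicles changed in LPS-treated cells. No gene was called: 0 of the 40 and 0 of all 11141 genes (0.0%) in limma, 0 under the replicate block, with and without rescaling, 0 in limma-voom and 0 with the libraries numbered 1 and 3 alone. The lowest adjusted p among the 40 was 0.999, and 0.776 with the block. At an unadjusted p under 0.05, 2 of the 40 were higher and 0 lower, where 2.65% of all genes passed in either direction and 1.23% as higher. The values of 33 of the 40 were above 0, as were those of 48.4% of all genes, with a median of 0.10 for the 40 and -0.01 for all. The 95% intervals of the 37 subunits all lay between -0.61 (Ndufs6) and 0.72 (Ndufs7) on the log2 scale.

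Ndufb7, another twin-cysteine subunit of the distal arm, had the largest value, 0.35 (SE 0.14, 95% interval 0.05 to 0.66, unadjusted p = 0.0293, adjusted p = 0.999, limma). It was at 105, 124 and 95.8 FPKM in Control, 75.3, 77.4 and 73.6 FPKM in LPS, and 84.0, 95.9 and 112 FPKM in LPS+EVs, so that no LPS library reached the LPS+EVs range and LPS+EVs overlapped with Control. Ndufa8, a subunit with the same kind of motif near the proximal arm, was at 81.1, 80.3 and 72.5 FPKM in Control, 64.3, 67.9 and 59.0 FPKM in LPS, and 71.0, 74.8 and 80.5 FPKM in LPS+EVs. It too separated LPS from LPS+EVs, with a value of 0.24 (95% interval 0.01 to 0.47, unadjusted p = 0.0449, adjusted p = 0.999, limma). With Ndufb4 and Ndufv3 these made 4 of the 40 above LPS without overlap and 0 below, where 3.14% of all genes were above and 3.48% below.

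The core subunits had values from 0.05 to 0.29, none of which passed; Ndufs7 had the largest (0.29, 95% interval -0.14 to 0.72) and Ndufs8 came next (0.22, 95% interval -0.10 to 0.55). Ndufa7 had 0.25 (95% interval -0.05 to 0.55) and Ndufb10 0.25. The lowest values were -0.19 for Ndufs6 and -0.15 for Ndufc2, which was at 87.6, 81.1 and 88.2 FPKM in Control, 64.8, 63.1 and 60.2 FPKM in LPS, and 64.2, 50.4 and 55.8 FPKM in LPS+EVs. In none of these genes was the difference larger than the spread between libraries by the test.

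The shift above LPS was uneven over the numbered libraries. The summed FPKM of the 37 subunits in LPS+EVs was 1.01 times that in LPS for number 1, 1.04 times for number 2 and 1.23 times for number 3, and the count of subunits above their LPS level was 20, 24 and 32 of 37. Without LPS 3 or without LPS+EVs 3 the median of the 40 was 0.06 in each case. For LPS over Control the same 3 ratios were 0.655, 0.699 and 0.675, and 36, 33 and 34 of the 37 were lower. The shares of all genes above or below in the same pairs of libraries are not given here. These counts can therefore not be read as particular to the subunits. The FPKM of all genes summed to 490677, 513214 and 473664 in LPS 1, 2 and 3, and to 505654, 507007 and 495011 in LPS+EVs 1, 2 and 3.

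For the 7 complex I subunits encoded by mitochondrial DNA, values were below 0 in each of the 3 comparisons. With LPS 5 of the 7 fell, with a median of -1.34; ND1 went from 1786, 1505 and 2048 FPKM in Control to 871, 632 and 1017 FPKM in LPS, and was at 688, 518 and 514 FPKM in LPS+EVs. ND4 was at 975, 838 and 1246 FPKM in Control, 392, 213 and 602 FPKM in LPS, and 212, 133 and 159 FPKM in LPS+EVs, and ND6, on the other strand, at 27.9, 21.5 and 24.9, then 5.29, 3.41 and 10.8, then 2.74, 1.70 and 4.79 FPKM. In LPS+EVs minus LPS the 7 had a median of -0.84 and 0 passed, with 6 lower at an unadjusted p under 0.05, as were 1.42% of all genes. Against Control all 7 were lower in LPS+EVs (median -2.60). Of all genes, 28.7% were called lower with LPS and 30.8% with LPS+EVs, each against Control. The counts of these 7 after rescaling are not given here. Their summed FPKM divided by that of the 37 nuclear-encoded subunits was 1.91, 1.64 and 2.61 in Control, 1.57, 1.04 and 1.96 in LPS, and 1.04, 0.727 and 0.641 in LPS+EVs. The lowest LPS library and the highest LPS+EVs library were almost equal, and Control and LPS overlapped. The mitochondrial genes sit close together or overlap, and whether strand was used in counting is not given in the sources used here.

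LPS+EVs compared with Control shares its Control libraries with the LPS comparison and its treated libraries with the vesicle comparison, so it is given only side by side. Here 22 of the 40 were lower and 1 higher, where 30.8% of all genes were called lower and 13.5% higher; after rescaling it was 12 lower and 1 higher, against 22.5% and 18.6%, and in limma-voom 11 and 1, against 22.2% and 18.8%. The block gave 24 lower and 1 higher, against 37.4% and 17.8%, the block with rescaling 15 and 1, against 27.4% and 25.2%, and the fit without the libraries numbered 2 gave 20 and 1, against 31.9% and 16.4%. Between groups without overlap stood 24 lower and 1 higher, against 40.6% and 19.6% of all genes. Of the 22, 21 also fell with LPS alone. Ndufc1 was called here only (-0.56, adjusted p = 0.0422, limma, with the call lost without Control 1, 2 or 3, LPS 3, or LPS+EVs 2 or 3), and Ndufb2, Ndufb7, Ndufs7 and Ndufv3 in the LPS comparison only; the difference between these calls is the LPS+EVs minus LPS value, which did not pass for any of the 5. Ndufa12 (-0.36, adjusted p = 0.0448, limma) lost its call without any one Control or LPS+EVs library, Ndufa13 without Control 1 or 2 or LPS+EVs 1 or 2, Ndufb9 without Control 1 or LPS+EVs 1, and Ndufb3 and Ndufb11 without Control 1. After rescaling 10 of the 22 were no longer called: Ndufa3, Ndufa9, Ndufa12, Ndufa13, Ndufab1, Ndufb3, Ndufb6, Ndufb9, Ndufb11 and Ndufc1, with adjusted p from 0.0625 for Ndufab1 to 0.556 for Ndufa12 (limma).

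Ndufb5 was the lowest against Control, at -1.39 with LPS+EVs and -1.31 with LPS (adjusted p = 0.00013 and 0.00018, limma). Ndufb8 had -1.09 and -1.16, Ndufs1 -1.08 and -1.15, Ndufv1 -0.94 and -1.04, Ndufs8 -0.92 and -1.14, Ndufv2 -0.65 and -0.70, and Ndufs3 -0.63 and -0.68. Ndufs7 had -0.26 with LPS+EVs and did not pass (adjusted p = 0.284, limma). Ndufa7 rose with LPS+EVs, by 0.60 (SE 0.13, adjusted p = 0.00689, limma), and it was called in every alternative, with an adjusted p from 0.000689 to 0.0312. With the block, Ndufa4 (adjusted p = 0.0198) and Ndufs5 (0.0386) were also called lower. Called lower in every alternative of this comparison were 11 genes, among them Ndufa11, Ndufb1, Ndufb4, Ndufb5, Ndufb8, Ndufs1, Ndufs3, Ndufs8, Ndufv1 and Ndufv2. These 11 and Ndufa3, Ndufa9 and Ndufab1 make up the 14 that were called lower in every alternative of LPS against Control. The share of all genes called in every alternative is not given here, so the counts of 11 and 14 have no background beside them.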

How the data were processed

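Total RNA from 9 cultures was sequenced, 3 per group; the labels give each library's group and number. The authors deposited 1 table of FPKM values. Per the submitters' processing notes they used fastp, HISAT2, HTSeq, R 3.2.0 and build mRatBN7.2; settings are not given in the sources used here. Whole reads were recovered from the steps of the FPKM values (18833 genes with a value in 2 or more libraries, largest distance from a whole read 0.0003); the method was tested on simulated data.

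The main test was limma 3.58.1 with a trend (R 4.3.3) on log2(FPKM + 1) of genes at 1 FPKM in 3 libraries, with Benjamini-Hochberg adjustment over all genes and a threshold of 0.05; it was tested on simulated data. Tables were made with pandas 2.3.3 and numpy 2.4.6 in Python 3.11.15, and plots with matplotlib 3.10.9. The labels do not say whether libraries of the same number share an animal. Deviations from group means correlated at 0.28 to 0.86 for the same number and -0.74 to 0.43 for different ones, and these ranges overlap. Deviations within a group of 3 sum to 0, so positive values for the same number by themselves lower those for different numbers. The block is therefore an alternative only and is printed where it changes a call. Alternatives were another scaling, pseudocount, filter, the 6 compared libraries, the block, limma-voom on recovered reads, libraries 1 and 3 alone, and leaving out each library. The other scaling was by the median of ratios, and limma-voom took its library sizes from the same method.

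The genes and lists were chosen with earlier results of these data known. Values per library are given for the core subunits, the 4 smallest adjusted p (ties by unadjusted p) and 2 largest differences each way per comparison, calls against the majority, Ndufa4, Ndufa4l2 and Ndufab1, and up to 3 genes of each other list. Ndufa11, Ndufa1, Ndufa10l1, Nrf1, Tfam, Tfb2m, Hif1a, Isca2 and Coq10b were described beyond this rule, after their values were seen. Some genes of the rule and lists are not reported here by name. Planned protein features were not analysed here.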

Additional observations from a re-analysis of the deposited data

How the results depend on the processing

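The scaling of the libraries mattered most, and limma-voom used the same median-of-ratios scaling as the rescaled fit. For LPS against Control, 25 of the 40 genes were called in the main test, 15 after median-of-ratios rescaling and 16 in limma-voom on recovered reads; for LPS+EVs against Control the counts were 23, 13 and 12. The replicate block gave 29 and 25 calls, and 18 and 16 together with rescaling. Leaving out 1 library gave 21 to 27 calls for LPS against Control and 17 to 24 for LPS+EVs against Control. For LPS+EVs against LPS it gave 0, as did all 18 alternatives. The calls over all 11141 genes moved as well. Leaving out 1 library gave 2215 to 3177 lower and 923 to 1500 higher for LPS against Control. For LPS+EVs against Control it gave 2522 to 3986 lower and 1071 to 1796 higher. For LPS+EVs against LPS, 1 of all genes was called higher without LPS 2. The replicate number, used as a block on the deposited scale, changed no call beyond those named beside the results. On the rescaled values the block added Ndufa13, Ndufb6 and Ndufb11 to the lower calls of LPS against Control, and Ndufa9, Ndufab1 and Ndufb6 to those of LPS+EVs against Control.

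Some values changed sign between settings, and none of them passed in either setting. For Ndufa4l2, leaving out 1 library gave -0.13 (LPS 1; -0.06 without Control 2) to 0.83 for LPS minus Control, -0.57 to 0.56 for LPS+EVs minus LPS (0.56 without LPS+EVs 2, 0.40 without LPS 1, and 0.079 with libraries 1 and 3 alone), and -0.14 (Control 2 or LPS+EVs 3) to 0.91 for LPS+EVs minus Control. For Ndufa4, LPS+EVs minus LPS was 0.0092 after rescaling, with or without the block, 0.011 in limma-voom, 0.0040 with libraries 1 and 3 alone, and -0.091 to 0.092 when 1 library was left out (0.084 without LPS 1). For Ndufs1 it was -0.037 to 0.20 when 1 library was left out, below 0 without LPS 2 (-0.031) or LPS+EVs 3. LPS+EVs minus Control after rescaling, with or without the block, was 0.18 for Ndufa8, 0.088 for Ndufb10 and 0.072 for Ndufb7, and in limma-voom 0.18, 0.088 and 0.073. For LPS+EVs minus Control rescaling also gave values above 0 for Ndufa2 (0.21), Ndufa6 (0.11), Ndufa10 (0.09), Ndufa5 (0.08), Ndufv3 (0.02) and Ndufs4 (0.01), and for LPS minus Control for Ndufa6 (0.01) and Ndufa5 (0.00). By construction, rescaling shifts nearly all genes alike, moving the median of all genes from -0.19 to -0.00 in both comparisons with Control; the cause of the other sign changes was not tested. Ndufa4l2 gave no value under the filter of 5 FPKM. Counting error weighs most on Ndufa4l2 and Ndufs6, whose lowest read counts were 24 and 44. The part of counting error in the sign changes above was not tested.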
